A study of Homo sapiens with 4 samples.

Results

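The 8 genes described here are INSIG1, INSIG2, SREBF2, SCAP, STARD4, MYLIP, NPC1 and SCARB1. These genes act in LDL uptake, in the sensing of sterols or in related uptake and transport of cholesterol. They were taken by gene name from the deposited table, and all 8 were found among its 58735 genes (INSIG1 is ENSG00000186480, INSIG2 ENSG00000125629, SREBF2 ENSG00000198911, SCAP ENSG00000114650, STARD4 ENSG00000164211, MYLIP ENSG00000007944, NPC1 ENSG00000141458 and SCARB1 ENSG00000073060). RNA-seq covered HCT116 and LOVO, each as adherent cells and as spheroids, with 1 library per condition. Both names are those of established human colorectal cancer cell lines, and the labels call them wild type. The adherent cells carry no treatment and grew in RPMI-1640 with fetal bovine serum. The spheroids are labelled with a treatment of 1 mg/ml of an agent the labels do not name. The study's text gives oxaliplatin at 1 μg/ml, on ultralow attachment dishes in serum-free DMEM/F12 with B27, N2, bFGF and EGF, whereas the labels give the serum medium for every library. By the study's text attachment, medium and drug changed together, and their parts in any difference between spheroids and adherent cells cannot be told apart.

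Cholesterol reaches cells in LDL particles, which are taken up at the surface and broken down in lysosomes, and it is also made in the endoplasmic reticulum. SCAP, a membrane protein of the endoplasmic reticulum, binds sterols and escorts SREBP2, the transcription factor encoded by SREBF2, to the Golgi for cleavage. The INSIG proteins hold the SCAP and SREBP complex in the endoplasmic reticulum when sterols are plentiful. Released SREBP2 switches on genes of sterol synthesis and uptake, INSIG1 and SREBF2 itself among them, so the circuit feeds back on itself.

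The libraries held 15483569 to 20429147 reads on genes, recovered from the FPKM (fragments per kilobase of gene, scaled to library size). Each condition had 1 library, so no value below carries a replicate error, and no test was made within a line. The intervals given are 95% exact counting intervals, which cover counting error only and compare libraries, not conditions. Of 9 markers of colon epithelium, 6 had an FPKM of at least 1 in each HCT116 library, whereas 3 and 4 did in the adherent and the spheroid library of LOVO. Their summed FPKM lay between 1281 and 1753 in HCT116 and between 187 and 327 in LOVO. CDH1, the epithelial cadherin, had 3920 and 3227 reads in the HCT116 libraries but 13 and 1 in the LOVO libraries, and CDX2, an intestinal transcription factor, had 323 and 216 against 0 and 0, below the floor of 3 reads. EPCAM, a surface marker of epithelia, had 4397 and 3356 reads in HCT116 and 42 and 76 in LOVO, while the keratin genes KRT8 and KRT18 were above an FPKM of 80 in every library. KRT19, another keratin gene, had an FPKM of 808 and 543 in HCT116 but of 14.9 and 4.85 in LOVO, and within LOVO KRT8 was at 189 adherent and 81.6 in spheroids. VIL1, CDX1 and CDH17 were below an FPKM of 0.4 in all 4. Markers of other cell types summed to an FPKM of 6.98 and 17.5 in HCT116 and to 51.3 and 51.1 in LOVO, where VIM, a mesenchymal filament gene, gave 39.4 and 32.2. The blood cell gene PTPRC had 0 to 2 reads in each library. The endothelial gene PECAM1 had 12 reads adherent and 51 in spheroids of HCT116, against 5 and 992 in LOVO, and the collagen gene COL3A1 had 1 and 41 against 99 and 703. COL1A1, another collagen gene, had 1103 and 2557 reads in HCT116 and 1741 and 1206 in LOVO. The libraries labelled LOVO thus had almost no CDH1, no reads of CDX2 and little EPCAM, although KRT8 and KRT18 stayed high. These values set them apart from HCT116 and leave their label open to question. The identity of these cells and its part in the results were not tested, and LOVO below stands for the libraries so labelled.

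Promoter sequences of some of the genes are shown first, since SREBP2 acts through short DNA elements near gene starts. Windows of 300 bases, from 250 bases before a transcription start to 50 after it, were taken from RefSeq on GRCh38.p14 for 7 of the 8 genes, with 2 windows for INSIG2 and no entry for SCARB1. Both strands were searched for the sterol regulatory element SRE-1 (TCACNCCAC), the E-box (CACGTG), which SREBPs can also bind, and the boxes of their partner factors NF-Y (CCAAT) and Sp1 (GGGCGG). Of 35116 such windows in the genome, 1.13% held the SRE-1 letters, 7.26% the E-box, 34.6% the NF-Y box and 45.0% the Sp1 box, and neighbouring Sp1 matches can share bases. The windows of SREBF2 (chr22:41832855-41833154, plus strand), INSIG1 (chr7:155297628-155297927, plus strand) and STARD4 (chr5:111512486-111512785, minus strand) are printed 5′ to 3′ along the gene. Capitals mark SRE-1, E-box and NF-Y matches.
SREBF2: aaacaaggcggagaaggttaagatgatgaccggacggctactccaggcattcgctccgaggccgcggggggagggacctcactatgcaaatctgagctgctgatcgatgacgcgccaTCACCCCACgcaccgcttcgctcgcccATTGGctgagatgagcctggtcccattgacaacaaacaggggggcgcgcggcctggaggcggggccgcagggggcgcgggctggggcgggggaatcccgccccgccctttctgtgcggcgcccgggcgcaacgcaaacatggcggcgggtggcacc
INSIG1: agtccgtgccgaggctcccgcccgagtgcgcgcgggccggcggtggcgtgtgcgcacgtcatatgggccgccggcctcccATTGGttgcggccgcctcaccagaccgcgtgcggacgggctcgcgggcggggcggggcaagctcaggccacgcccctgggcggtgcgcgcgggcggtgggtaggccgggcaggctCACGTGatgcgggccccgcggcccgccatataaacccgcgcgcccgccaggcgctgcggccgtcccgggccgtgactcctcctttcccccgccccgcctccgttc
STARD4: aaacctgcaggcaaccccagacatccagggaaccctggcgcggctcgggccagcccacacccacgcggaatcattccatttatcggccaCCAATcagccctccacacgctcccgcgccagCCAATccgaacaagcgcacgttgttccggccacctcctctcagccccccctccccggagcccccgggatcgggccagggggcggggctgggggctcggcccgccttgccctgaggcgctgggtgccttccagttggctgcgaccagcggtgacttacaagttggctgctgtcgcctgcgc

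SREBF2 was the only one of the 7 genes whose window held the SRE-1 letters, which began 133 bases before the start, with an NF-Y box 106 bases before it. INSIG1 held an E-box 55 bases and an NF-Y box 170 bases before its start, and STARD4 held 2 NF-Y boxes, 161 and 130 bases before its start. SCAP held an E-box 58 bases before its start, and MYLIP held 2 NF-Y boxes, 109 and 68 bases before its start. INSIG2 and NPC1 held neither SRE-1 nor E-box nor NF-Y box, and every window held at least 1 Sp1 box. A match is a description of letters and not of binding, and sites outside these windows were not searched.

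The clearest pattern among the 8 genes was in the libraries labelled LOVO, where INSIG1 and STARD4 were far higher in spheroids than in adherent cells, INSIG2 and NPC1 were higher by 2.10- and 2.11-fold, SREBF2 by 1.33-fold, and SCAP, MYLIP and SCARB1 differed little. In HCT116 every difference was below 1.5-fold. In bulk RNA, fewer cells of a type and less RNA per cell cannot be told apart. Fold changes below are spheroids minus adherent cells of the same line in log2(FPKM + 1), a scale that makes changes of low genes look smaller. Comparisons covered the 14429 genes whose FPKM averaged 1 or more, and all 8 genes were among them.

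The 8 genes were chosen with earlier results of these data known, so the counts below are a description only. In HCT116, the fold change of 0 of the 8 genes was above 2 and of 0 above 1, where 0.201% and 2.19% of all genes compared were. None was below -1, against 3.33% of all genes. In LOVO, INSIG1 and STARD4 were above 2, or 2 of 8 genes, against 1.81% of all genes compared. INSIG1, STARD4 and NPC1 were above 1, or 3 of 8, against 8.57% of all genes, and none was below -1, against 7.85%. NPC1 passed that threshold with a value of 1.00, and INSIG2, at 0.95, passed it in all 6 other settings of pseudocount and scaling that were tried. The median of the 8 genes was 0.22 in HCT116 and 0.68 in LOVO, beside -0.03 and -0.06 over all genes compared. The balance of all genes moved with the scaling of the libraries. At a threshold of 1, 39.7% of the genes past it in HCT116 and 52.2% of those in LOVO were higher in spheroids with the FPKM as deposited, against 52.4% and 68.3% with FPKM recomputed from the reads on genes, 44.8% and 62.5% with TMM-style scaling and 49.5% and 70.0% with TPM, the share of a library's length-scaled reads. TPM shifted the median of all genes in LOVO by 0.15 and the recomputed FPKM by 0.14, so small differences are best read relative to these shifts. In HCT116 TPM shifted the median by 0.01 only. Genes past 1 there still rose both ways, from 316 higher and 480 lower to 613 and 625. The pseudocount stayed at 1 in each scaling, and its part in these counts was not tested.

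The sensing complex came first. SREBF2, which encodes the transcription factor itself, lies on chromosome 22, plus strand (41833079 to 41907308 in GRCh38, as all coordinates here). In HCT116 its FPKM was 41.3 in the adherent and 50.0 in the spheroid library. In LOVO the values were 43.3 and 57.6. Both spheroid libraries were above both adherent libraries, and the adherent libraries of the lines were close to each other. Spheroids had 1.21-fold the level of adherent cells in HCT116 (interval 1.17 to 1.25) and 1.33-fold in LOVO (1.29 to 1.37). The log2(FPKM + 1) difference in LOVO was 0.40 as deposited and 0.61 with TPM or recomputed FPKM, a shift larger than the counting interval. SREBF2 was the highest of the 8 genes in every library but the LOVO spheroids, where INSIG1 was above it. Of its 7557 exonic bases, 280 overlap the antisense gene SREBF2-AS1, which had 76 to 189 reads. MIR33A, a microRNA gene in an intron of SREBF2, had 0 to 2 reads in each library, below the floor of 3 reads. The gene is 69 bases long, and the sources used here do not say whether such short RNA was captured. Its expression therefore cannot be read from these counts.

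SCAP, the sterol-binding escort, is on the minus strand of chromosome 3 (47413694 to 47477126). HCT116 gave an FPKM of 13.4 in the adherent and 14.6 in the spheroid library, and LOVO gave 15.1 and 14.9. These were the closest values of any of the 8 genes over the 4 libraries. The ratio of spheroids to adherent cells was 1.09 in HCT116 (1.02 to 1.17) and 0.988 in LOVO (0.925 to 1.05), where the interval included 1. The log2(FPKM + 1) difference in LOVO was -0.02 as deposited and 0.19 with recomputed FPKM. Its sign turned with TPM, recomputed FPKM, TMM-style scaling and centring on the median of all genes, so its direction rests on the scaling.

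INSIG1, one of the paralogs that hold SCAP in the endoplasmic reticulum and itself a classic target of SREBP2, is on the plus strand of chromosome 7 (155297776 to 155310235). HCT116 gave 1930 reads from adherent cells and 2327 from spheroids, an FPKM of 25.9 and of 37.9. LOVO gave 2248 and 21438 reads, an FPKM of 34.3 and of 292. The LOVO spheroids stood far above the other 3 libraries, which lay within 1.5-fold of each other. Spheroids had 8.50-fold the level of adherent cells in LOVO (8.14 to 8.88) and 1.46-fold in HCT116 (1.38 to 1.55). On the log2(FPKM + 1) scale the change was 3.05 in LOVO, exceeded by 71 of the genes compared, and 0.53 in HCT116, exceeded by 1375. By level, 72 of the genes compared stood above INSIG1 in LOVO spheroids, against 1534 in the adherent library.

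INSIG2, the paralog with the same retention role, is on the plus strand of chromosome 2 (118088452 to 118110997) and was the lowest of the 8 genes in HCT116. Its FPKM in HCT116 was 7.19 adherent and 10.4 in spheroids, and in LOVO 5.69 adherent and 12.0 in spheroids. As with SREBF2, both spheroid libraries lay above both adherent ones. Spheroids had 1.45-fold the level of adherent cells in HCT116 (1.29 to 1.62), close to the 1.46-fold of INSIG1. In LOVO the ratio was 2.10 (1.87 to 2.37), well under that of INSIG1. Transcripts of INSIG1 and INSIG2 share no stretch of 50 bases or more with each other or with any other gene of GENCODE 29, and no exonic base of either lies in an exon of another gene.

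**Figure D1:**
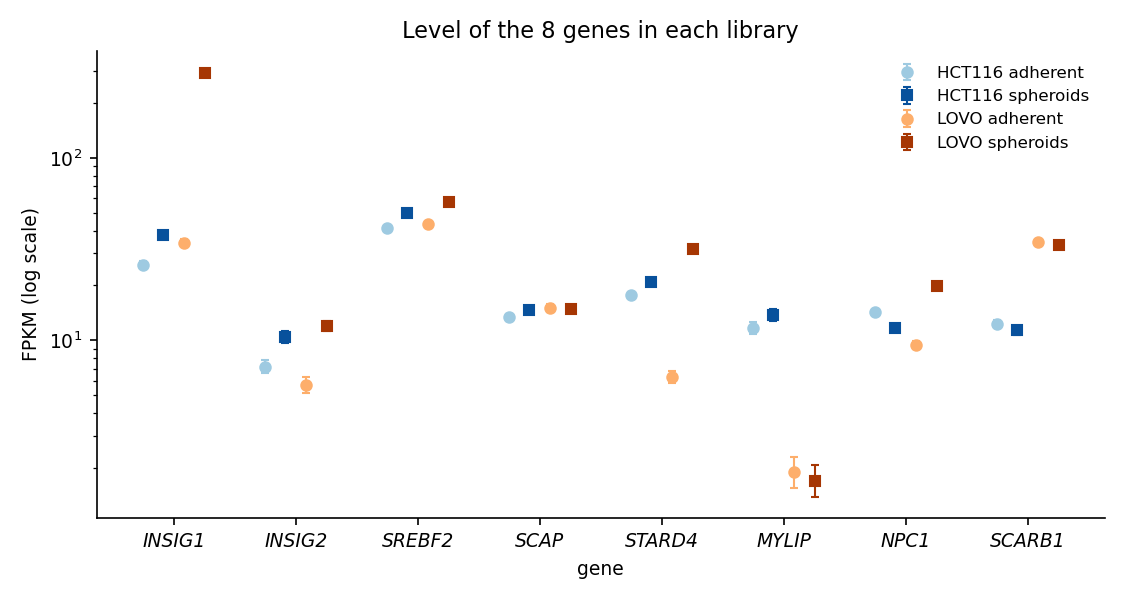
FPKM of the 8 genes (log scale) in adherent cells (circles) and spheroids (squares) of HCT116 (blue) and LOVO (orange to brown), 1 library each, with 95% exact Poisson counting intervals as bars. INSIG1 stands at 292 in LOVO spheroids against 25.9 to 37.9 elsewhere, SCAP lies between 13.4 and 15.1 in all 4 libraries, and MYLIP is below 2 in both LOVO libraries.

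Ratios between genes within a library do not depend on the scaling between libraries. In HCT116 the ratio of INSIG1 to INSIG2 FPKM was 3.61 adherent (3.29 to 3.97) and 3.64 in spheroids (3.35 to 3.97), and the intervals overlapped. In LOVO it was 6.04 adherent (5.43 to 6.73) and 24.4 in spheroids (22.9 to 26.1). INSIG1 stood at 1.94 and 2.60 times SCAP in the adherent and the spheroid library of HCT116. In LOVO it stood at 2.28 times SCAP adherent and at 19.6 times (18.7 to 20.6) in spheroids. INSIG2 was below SCAP in every library, at 0.539 and 0.714 times SCAP in adherent cells and spheroids of HCT116 and at 0.377 and 0.804 times in those of LOVO. The ratio of SREBF2 to SCAP varied least of these ratios but was higher in spheroids of both lines. In HCT116 it was 3.09 adherent (2.93 to 3.26) and 3.43 in spheroids (3.24 to 3.62), with overlapping intervals. In LOVO it was 2.87 adherent (2.72 to 3.03) and 3.87 in spheroids (3.68 to 4.06), without overlap. These are ratios of mRNA per length and not of protein.

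**Figure D2:**
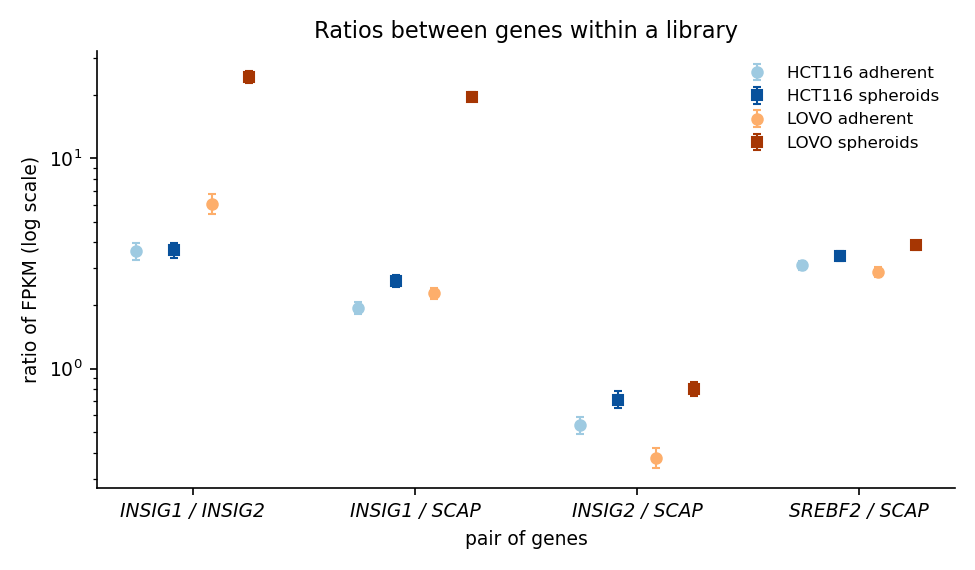
Ratio of FPKM between 2 genes of the same library (log scale) for 4 pairs of genes, in adherent cells (circles) and spheroids (squares) of HCT116 (blue) and LOVO (orange to brown), with 95% exact counting intervals. INSIG1 over INSIG2 is near 3.6 in both HCT116 libraries and 24.4 in LOVO spheroids. SREBF2 over SCAP lies between 2.87 and 3.87 and is higher in spheroids of both lines.

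Next came the genes that move cholesterol inside the cell. STARD4, a soluble carrier of cholesterol between membranes, is on the minus strand of chromosome 5 (111496033 to 111512590). The HCT116 libraries gave an FPKM of 17.7 adherent and 20.9 for spheroids (2056 and 1999 reads), a ratio of 1.18 (1.11 to 1.26). The LOVO libraries gave 6.30 and 31.6 (642 and 3618 reads), a ratio of 5.02 (4.62 to 5.47). Adherent LOVO cells had the lowest level of the 4 libraries and LOVO spheroids the highest, with HCT116 between them. Its change of 2.16 on the log2(FPKM + 1) scale in LOVO was exceeded by 205 of the genes compared. The antisense gene STARD4-AS1 covers 124 of its 5684 exonic bases and had 27 to 100 reads.

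NPC1, the lysosomal membrane protein that exports cholesterol released from LDL, is on the minus strand of chromosome 18 (23506184 to 23586898). Its difference had opposite signs in the lines. In HCT116 the FPKM was 14.2 adherent and 11.6 in spheroids, a ratio of 0.817 (0.771 to 0.865). In LOVO it was 9.42 adherent and 19.9 in spheroids, a ratio of 2.11 (1.99 to 2.23). Each line's interval lay on its own side of 1 and every setting tried kept both directions. With recomputed FPKM the log2 value in HCT116 was -0.16 in place of -0.27, and with 1 library per condition the difference between the lines was not tested. RMC1, on the opposite strand, shares 604 of the 10102 exonic bases of NPC1 and had an FPKM of 17.1, 15.4, 7.69 and 9.09 in the same order of libraries. Whether reads were counted by strand is not given in the sources used here, so reads from the shared bases cannot be told apart.

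The last pair acts at the cell surface. MYLIP, a ubiquitin ligase also called IDOL that lowers LDL uptake and is switched on by liver X receptors when sterols are high, is on the plus strand of chromosome 6 (16129125 to 16148248). In HCT116 the FPKM was 11.7 adherent and 13.7 in spheroids, from 723 and 699 reads. In LOVO it was 1.89 and 1.70, from 103 and 104 reads. The lines did not overlap, and within a line the libraries were close. The ratio of spheroids to adherent cells was 1.17 in HCT116 (1.06 to 1.30). In LOVO it was 0.900 (0.679 to 1.19), so a difference was not detectable at this depth, and its sign turned with TPM and with recomputed FPKM. SCARB1, the surface receptor that takes up cholesterol esters from HDL, is on the minus strand of chromosome 12 (124776856 to 124882668). Its FPKM in HCT116 was 12.3 adherent and 11.3 in spheroids, while the LOVO values were 34.7 and 33.5. Here too the lines did not overlap. Spheroids stood at 0.920 times adherent cells in HCT116 (0.859 to 0.985), a sign that recomputed FPKM turned. In LOVO the ratio was 0.966 (0.929 to 1.00), and the interval included 1. The log2(FPKM + 1) difference there was -0.05 as deposited and 0.16 with recomputed FPKM. Its sign turned with TPM, recomputed FPKM, TMM-style scaling and centring, so its direction rests on the scaling.

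**Figure D3:**
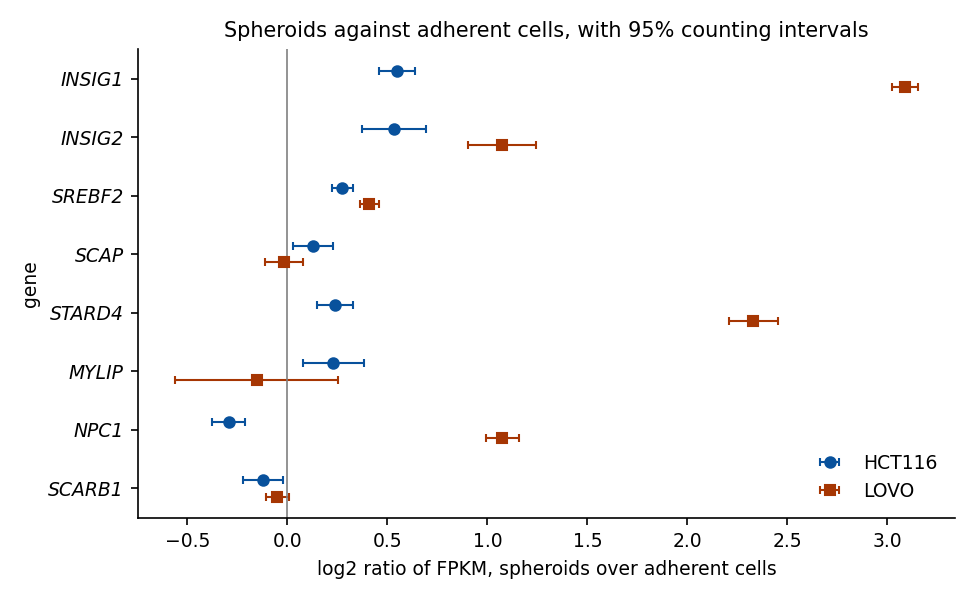
Log2 ratio of FPKM in spheroids over adherent cells for the 8 genes in HCT116 (blue circles) and LOVO (brown squares), with 95% exact Clopper-Pearson counting intervals, 1 library per condition. INSIG1 (3.09) and STARD4 (2.33) are farthest to the right in LOVO, INSIG2 and NPC1 lie at 1.07 and 1.08 there, and NPC1 is the gene whose 2 intervals lie on opposite sides of 0. The signs of SCARB1 in both lines and of SCAP and MYLIP in LOVO turn with some scalings.

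Between the lines, the adherent libraries differed by more than 1 on the log2(FPKM + 1) scale for 3 of the 8 genes, against 33.8% of all genes compared. SCARB1 was 1.42 higher in LOVO, while STARD4 and MYLIP were lower there, with differences of -1.36 and -2.13. In spheroids 3 of the 8 genes again differed by more than 1, against 32.7% of all genes. These were INSIG1 with 2.91 and SCARB1 with 1.48, both higher in LOVO, and MYLIP with -2.44. Both shares were near the background of all genes. SREBF2 and SCAP differed between the lines by 0.07 and 0.16 in adherent cells and by 0.20 and 0.03 in spheroids. The adherent and the spheroid comparison of the lines use the same libraries as the comparisons within each line.

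With the lines used as replicates in limma, and cell line as a covariate and 1 residual degree of freedom, 0 of 14429 genes (0%) passed an adjusted p of 0.05 (Benjamini-Hochberg), and 1545 had an unadjusted p below it. The log2 fold change was 1.79 for INSIG1 (standard error 0.63, limma adjusted p = 0.462), 0.72 for INSIG2 (0.26, limma adjusted p = 0.462) and 1.19 for STARD4 (0.50, limma adjusted p = 0.466). The remaining 5 genes lay between -0.08 for SCARB1 and 0.37 for NPC1, with limma adjusted p from 0.580 to 0.942. INSIG1 and INSIG2 had an unadjusted p under 0.05 and the other 6 genes did not. The change of INSIG2 was smaller than that of STARD4 but was closer to equal in the 2 lines, at 0.48 and 0.95 against 0.23 and 2.16.

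Related genes were read from 5 lists, which were also chosen with earlier results of these data known, and the difference between lists was not tested. Over all genes compared, 2.19% in HCT116 and 8.57% in LOVO were above 1, and 3.33% and 7.85% below -1, so that 1 gene past 1 in LOVO in a list of 6 to 12 genes is close to the background. Of 20 enzymes of sterol synthesis, 2 in HCT116 and 17 in LOVO were above 1, 10 of them above 2, and 0 were below -1 in either line. The list's median was 0.28 in HCT116 and 1.90 in LOVO. The 3 highest by the mean of the lines were MSMO1, a sterol methyl oxidase (1.02 in HCT116 and 4.36 in LOVO), MVD, the mevalonate diphosphate decarboxylase (0.35 and 3.49), and FDFT1, the squalene synthase (1.09 and 2.26). Among the lowest were PMVK, the phosphomevalonate kinase (-0.38 and -0.57), and CYP51A1, the lanosterol demethylase (-0.01 and 1.03). INSIG1 in LOVO was thus within the range of these enzymes, below MSMO1 and MVD.

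Of 12 genes that cleave SREBPs or degrade sterol-regulated proteins in the endoplasmic reticulum, 0 were above 1 in HCT116 and 1 in LOVO, with medians of -0.23 and -0.08, and 0 and 1 were below -1. In HCT116 11 of the 12 were lower in spheroids, all by less than 1, while 45.8% of all genes compared were higher there. Recomputed FPKM shifted the median of all genes in HCT116 by 0.08, so the smallest of these falls rest on the scaling. The gene above 1 was RNF145, a sterol-responsive ubiquitin ligase, with -0.35 in HCT116 and 1.46 in LOVO. It was followed by PAQR3, a Golgi anchor of SCAP (-0.16 and 0.37). Among the lowest were MBTPS2, the site-2 protease (-0.23 and -0.70), and SREBF1, the paralog of SREBF2 (0.06 and -0.54).

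Liver X receptors and their targets, the branch to which MYLIP belongs, held 6 compared genes of 7, of which 0 in HCT116 and 1 in LOVO were above 1 and 0 below -1. The medians were 0.30 and 0.20. NR1H3, which encodes liver X receptor alpha, had 0.05 in HCT116 and 1.23 in LOVO. ABCG1, a cholesterol exporter, had 0.67 and 0.15, and NR1H2, which encodes liver X receptor beta, had 0.48 and 0.26. Among the lowest were SMPDL3A (0.11 and 0.04) and LPCAT3, a phospholipid acyltransferase (-0.19 and 0.58). ABCA1, another cholesterol exporter, named here after its values were seen, did not reach a mean FPKM of 1 and had 226 and 389 reads in HCT116 against 4 and 16 in LOVO. Levels differed between the lines both ways in this list, with ABCA1 lower in LOVO and both receptor genes higher there. NR1H3 had an FPKM of 3.58 and 3.76 in HCT116 and of 6.16 and 15.9 in LOVO. NR1H2 had 8.67 and 12.5 against 14.2 and 17.1.

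Of 11 compared genes of 13 for cholesterol trafficking and storage, 0 in HCT116 and 3 in LOVO were above 1 and 0 below -1, with medians of -0.02 and 0.43. LIPA, the lysosomal lipase that frees cholesterol from LDL esters upstream of NPC1, had 0.67 in HCT116 and 1.72 in LOVO. GRAMD1B, a carrier between plasma membrane and endoplasmic reticulum, had -0.19 and 1.44, and STARD3, a late endosomal sterol carrier, had 0.63 and 0.51. The lowest were SOAT1, which esterifies cholesterol for storage (0.14 and -0.48), STARD3NL (-0.18 and -0.02) and NCEH1, a cholesterol ester hydrolase (-0.31 and 0.39). The third gene above 1 in LOVO was TMEM97, which binds NPC1 (-0.39 and 1.04), and NPC2, the soluble lysosomal partner of NPC1, had 0.16 and 0.95. Both are named after their values were seen.

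Among 8 compared genes of 9 for other lipoprotein and scavenger receptors and their adaptors, 0 in HCT116 and 1 in LOVO were above 1 and 0 and 2 below -1, with medians of -0.04 and 0.01. LRP1, a large endocytic receptor, had 0.87 and 0.54, LRP8, a relative that MYLIP also targets, had -0.21 and 1.37, and SCARB2, the lysosomal relative of SCARB1, had 0.56 and 0.50. The lowest were DAB2, an endocytic adaptor (0.18 and -3.50), VLDLR, another target of MYLIP (-1.07 in LOVO, from 1067 and 471 reads, against 3 and 5 reads in HCT116), and SNX17, a recycling adaptor (-0.23 and -0.36).

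**Figure D4:**
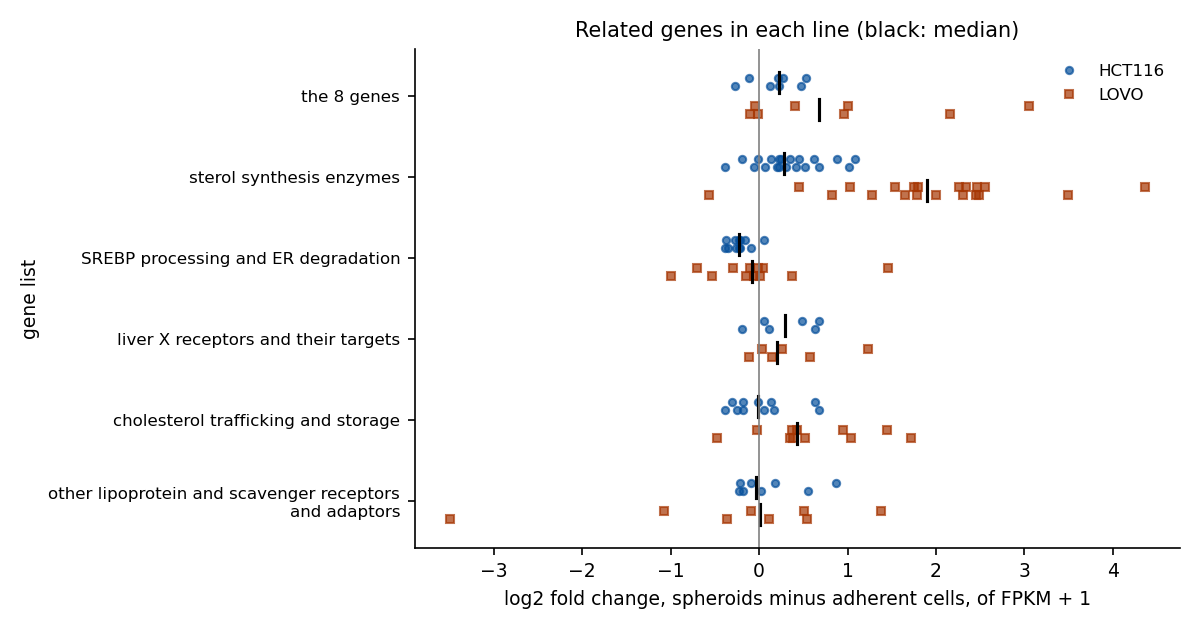
Log2 fold change (spheroids minus adherent cells, of FPKM + 1) of the 8 genes and of the compared genes of 5 related lists in HCT116 (blue circles) and LOVO (brown squares), with the median of each as a black line. The sterol synthesis enzymes have a median of 1.90 in LOVO and 0.28 in HCT116, whereas the genes of SREBP processing and degradation have medians of -0.08 and -0.23.

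The genes whose profiles were most like those of the 8 genes were found by the Euclidean distance between log2(FPKM + 1) profiles over the 4 libraries, each centred on its mean. For STARD4 the nearest was TM7SF2, a sterol reductase of the synthesis list, at a distance of 0.12, with an FPKM of 11.8 adherent and 13.6 in spheroids of HCT116 and of 3.52 and 21.4 in LOVO. LOXL4 and TSPAN13 followed, each at 0.17. For INSIG1 the nearest were S100A9 at 0.29, AC005586.2 at 0.32 and RF00019 at 0.34, whose FPKM were at most 17.5 in any library. For NPC1 they were ZDHHC20P1 at 0.08 and CISH and FA2H, both at 0.13, and for INSIG2 they were MYPOP, PANK3 and MANBA, all at 0.09. For SREBF2 they were RN7SKP80 at 0.03, AC093323.1 at 0.04 and NT5DC2 at 0.06, and for SCAP they were PER3, ZNF720 and TMEM69, all at 0.05. For MYLIP, CTSB at 0.05 was followed by MEF2C at 0.09 and RAP2B at 0.11, and for SCARB1, TTC33 at 0.02 was followed by TRMT2B at 0.07 and TIGD1 at 0.09. With 4 points per profile such likeness is a description only. For values near 0 it also rests on the pseudocount of 1. S100A9 had an FPKM of 0 and 0.103 in HCT116 and of 0.0966 and 7.84 in LOVO. MEF2C had 0.00474 adherent and 0 in spheroids of LOVO.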

How the data were processed

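RNA-seq was performed on 4 libraries, 1 per condition, grouped by their labels. The table the authors deposited holds the FPKM of each gene in each library beside its length and coordinates, and the columns were matched to samples by name. The aligner, counting tool and strand setting are not given in the sources used here. The submitters' processing notes name the mouse build GRCm38 (mm10), whereas all 58735 gene identifiers of the table were found in human GENCODE 29 on GRCh38. FPKM times gene length fell on whole multiples of 1 step for each library in 100% of nonzero entries (tolerance 0.01), which gave the reads. The library sizes behind the deposited FPKM were 0.907 to 1.09 times the reads on genes.

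Fold changes were differences of log2(FPKM + 1) between spheroids and adherent cells of a line, over genes averaging 1 FPKM or more. Genes above a log2 fold change of 2, after the study's methods, and of 1 were counted. The limma package (3.58.1, under R 4.3.3; lmFit and trended eBayes) was fitted to all 4 libraries with cell line as a covariate. The authors' edgeR, which models counts, was not used here. Counting intervals were exact at 95% (Clopper-Pearson for ratios, Poisson for levels), and the floor was 3 reads, which is 0.147 to 0.179 FPKM at a length of 1 kb. Python 3.11.15 with numpy 2.4.6, pandas 2.3.3, scipy 1.17.1 and matplotlib 3.10.9 was used. Steps were also run on simulated data in which each changed gene had the same change in both lines. Changes that differ between the lines, as found here, were not simulated.

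The genes and lists were chosen with earlier results of these data known. Named genes were the 8 genes, the 3 highest and 3 lowest of each list by the mean of the lines, and the 3 nearest profiles of each gene, and some genes that this rule names are not reported here. Alternatives were pseudocounts of 0.1 and 0.01, TPM, FPKM recomputed from the reads on genes, TMM-style scaling, centring on the median, other filters on low values, protein-coding genes only, and limma without the covariate or with another pseudocount, filter or scaling.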

Additional observations from a re-analysis of the deposited data

Results flagged for a closer look

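For 3 of the 8 genes the spheroids of the 2 lines differed from their adherent cells in opposite directions, and none of these differences was tested, since each condition had 1 library. Over all genes compared, 35.8% had opposite signs in the lines, against 37.5% of the 8 genes, so the count itself is near the background. NPC1 differed by -0.27 in HCT116 and by 1.00 in LOVO on the log2(FPKM + 1) scale, a difference of 1.27, and the counting intervals of its log2 ratio ran from -0.38 to -0.21 and from 0.99 to 1.16. MYLIP had 0.21 and -0.10, a difference of -0.31, and its interval in LOVO, from -0.56 to 0.26, included 0. SCAP had 0.12 and -0.02, a difference of -0.14, and its interval in LOVO, from -0.11 to 0.08, also included 0. The LOVO signs of MYLIP and SCAP turned with TPM and with recomputed FPKM, while those of NPC1 held in all 6 settings.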

How the results depend on the processing

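The counts of the 8 genes above a log2 fold change of 2 (0 in HCT116, 2 in LOVO) and above 1 in HCT116 (0) were the same in all 6 settings of pseudocount and scaling, and in LOVO the count above 1 was 3 as reported and 4, with INSIG2, in each of the 6. The median log2 fold change of the 8 genes in HCT116 moved from 0.22 to 0.33 with recomputed FPKM, and in LOVO from 0.68 to 0.92 with TPM, 0.88 with recomputed FPKM and 0.80 with TMM-style scaling. Of the 16 fold changes of single genes, 16 kept their sign with either pseudocount, 14 with TMM-style scaling and with centring, 13 with TPM and 12 with recomputed FPKM, and those that did not were SCARB1 in either line and SCAP or MYLIP in LOVO. Among the other receptors and adaptors, 1 gene in place of 0 was above 1 in HCT116 with a pseudocount of 0.1 or 0.01 and with TPM. Over all genes, those above 1 numbered 316 in HCT116 and 1236 in LOVO as reported, and 613 and 2267 with TPM. Without the filter on low values, 0.0528% of genes in HCT116 and 0.460% in LOVO were above 2, and 0.885% and 2.69% above 1. With protein-coding genes only, the HCT116 shares were 0.111% and 1.40%. By limma, 0 of the 8 genes had an adjusted p under 0.05 in any of 4 alternatives, with the smallest adjusted p among them from 0.363 to 1.00. The causes of these shifts were not tested. Leaving out a replicate could not be done with 1 library per condition. MYLIP in LOVO, with 103 and 104 reads, was the value most limited by depth.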

Other observations

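SREBF1, the paralog of SREBF2 that encodes the SREBP forms known mainly for fatty acid synthesis, did not follow SREBF2 in LOVO. Its FPKM in HCT116 was 27.9 adherent and 29.1 in spheroids, and in LOVO 43.1 adherent and 29.4 in spheroids. Within a library of HCT116, the ratio of SREBF2 to SREBF1 was 1.48 adherent (95% counting interval 1.43 to 1.54) and 1.72 in spheroids (1.65 to 1.79). In LOVO it was 1.01 adherent (0.970 to 1.04) and 1.96 in spheroids (1.89 to 2.03). In both lines the ratio was higher in spheroids, with 1 library per condition.

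STARD4 and NPC1, which both act in intracellular cholesterol transport, did not keep 1 order. The ratio of their FPKM, STARD4 over NPC1, was 1.25 adherent (1.18 to 1.32) and 1.80 in spheroids (1.69 to 1.92) of HCT116. In LOVO it was 0.668 adherent (0.609 to 0.732) and 1.59 in spheroids (1.52 to 1.67). NPC1 was therefore the higher of the 2 per length in adherent LOVO cells, and STARD4 in the other 3 libraries.

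DAB2, an adaptor for endocytosis of lipoprotein receptors, had the lowest value of any gene in the 5 lists, -3.50 in LOVO on the log2(FPKM + 1) scale. Its reads there were 11771 adherent and 1026 in spheroids, against 313 and 310 in HCT116. Both LOVO libraries stand apart from HCT116 in epithelial markers. Any part of this in the values of DAB2, between the lines or within LOVO, was not tested.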
